A study of Rattus norvegicus with 32 samples.

Results

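The liver's urea cycle and its routes of amino acid breakdown were followed through 38 genes, listed by symbol for the enzymes and carriers they encode. Of these, 36 had a row in the deposited table of counts, which held 17327 genes, and all 36 were among the 11002 genes that passed a filter on low counts. Uroc1 and Slc25a13 were not analysed here. The 36 genes comprised 6 urea cycle enzymes, 1 mitochondrial carrier, 4 genes of glutamate handling and transamination, 3 of histidine, 3 of tyrosine, 4 of tryptophan, 1 of lysine, 4 of serine and proline, 6 of methionine, 2 of glyoxylate and D-amino acid and 2 of branched-chain amino acid breakdown.

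Hepatocytes take the nitrogen of amino acids, by transamination and oxidative deamination, into ammonia and aspartate, and the urea cycle turns both into urea. The cycle starts in mitochondria with carbamoyl phosphate and ends in the cytosol with the release of urea from arginine, while the carbon skeletons of the amino acids are broken down by routes of their own. Glucocorticoids and glucagon are textbook inducers of many of these genes, and corticosteroid-binding globulin (CBG), the product of Serpina6, is the plasma carrier of glucocorticoids.

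RNA was sequenced from livers of Charles River Sprague Dawley rats, which were either wild type (WT, Cbg+/+) or CBG-deficient (KO, Cbg-/-, with Serpina6 ablated by genome editing). Males and females of each genotype were taken at 30 and at 60 days of age under basal conditions, which gave 8 groups of 4 libraries: WT females, KO females, WT males and KO males at each age. No group carried any other allele or agent, as far as the labels say. The sources used here do not give the number of founder lines or the hour of collection. The labels do not state that the 4 samples of a group came from separate animals, so the p-values measure only the spread between these samples, which may be technical. Samples are numbered 1 to 4 within a group in the order of the series, which links no samples across groups.

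The libraries held 12951969 to 21954929 reads on genes. Serpina6 was at 25.5 to 131 CPM (read counts scaled to a common library total) in the 16 KO libraries and at 421 to 1358 CPM in the 16 WT libraries, without overlap. Summed hepatocyte markers (5 of 5 measured) were at 189143 to 276391 CPM, and summed kidney markers (4 measured) were at no more than 0.444 CPM in any library. KO female 1 at 60 days held 1784 CPM of 6 retina markers, a level far above that of the other 31 libraries. Summed pancreas markers (4 measured) reached 35.1 to 220 CPM in WT females at 60 days and 6.21 to 48.5 CPM in KO females of that age. A clock score, the mean log2 CPM of 6 genes such as Dbp and Per3 minus that of Arntl, Npas2 and Clock, was -1.54 ± 0.53 (SD, n = 4) in WT and -0.13 ± 0.76 in KO females at 60 days. The 36 genes together took 1.68% to 2.71% of the reads on genes. In bulk liver, fewer cells of a type and less RNA per cell cannot be told apart.

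**Figure D1:**
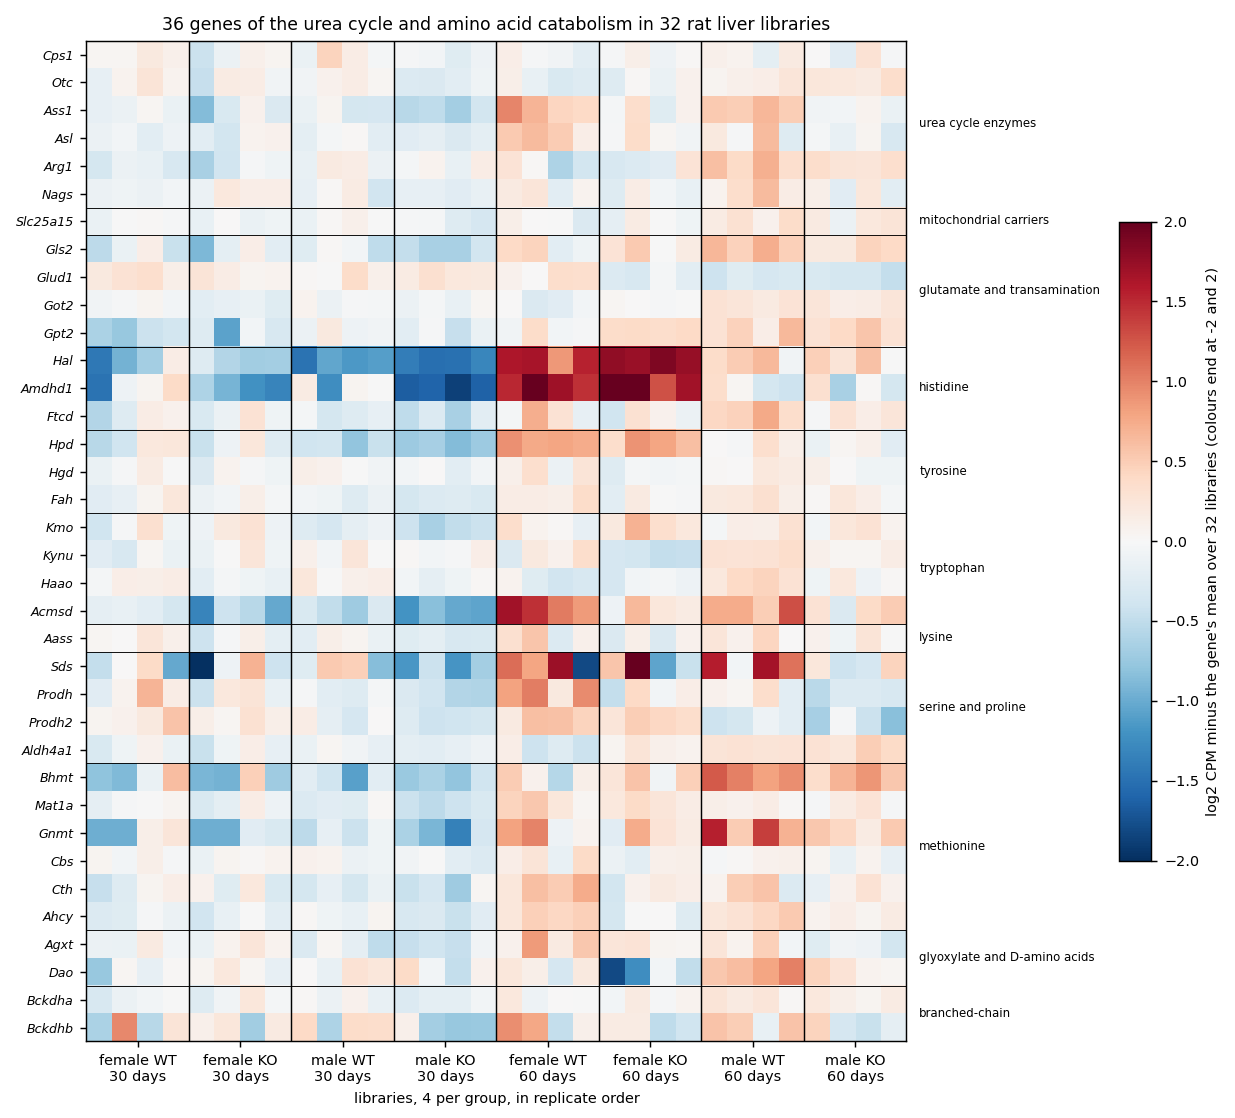
Level of each of the 36 genes (rows, ordered by pathway) in each of 32 libraries (columns, 4 per group), as log2 CPM minus the gene's mean over all libraries. The colour scale ends at -2 and 2. Hal and Amdhd1 are red in the 8 female libraries at 60 days, and Acmsd has its highest group mean in WT females of that age.

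The first question was whether loss of CBG changed these genes within a sex and age, tested with edgeR's quasi-likelihood test and Benjamini-Hochberg adjustment over all 11002 genes at an adjusted p below 0.05. In females at 60 days 7 of the 36 genes were lower in KO (3.29% of all tested genes were lower) and 1 was higher (3.48% of all tested genes were higher). The 7 were Acmsd, Dao, Prodh, Ass1, Ahcy, Kynu and Glud1, and the 1 was Aldh4a1. None of the 36 passed in females at 30 days (0.3% of all tested genes did), in males at 30 days (0.0545%) or in males at 60 days (0.209%). At an unadjusted p below 0.05 the numbers were 18 in 60-day females (20.8% of all tested genes), 4 in 30-day females (10.7%), 9 in 30-day males (5.94%) and 11 in 60-day males (10.8%). DESeq2 called none of the 36 in 30-day females (0.698% of all genes it adjusted), Amdhd1 in 30-day males (0.207%) and Ass1 and Haao in 60-day males (0.635%). Marker sums of other cell types stood as follows in 60-day females. Cholangiocyte markers (3 measured) were at 11.8 to 15.0 CPM in WT and 16.1 to 19.9 CPM in KO, stellate cell markers (5 measured) at 229 to 379 and 378 to 402 CPM, and lymphocyte markers (3 measured) at 0.74 to 2.54 and 2.32 to 3.01 CPM. Kupffer cell markers (5 measured) were at 323 to 483 CPM in WT and 297 to 411 CPM in KO. Endothelial markers (3 measured) were at 105 to 139 and 126 to 173 CPM, and erythroid markers (4 measured) at 207 to 495 and 360 to 633 CPM. Their part in the differences was not tested.

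The direction of the fitted differences was uneven. In 30-day males 35 of the 36 genes had a negative log2 ratio of KO to WT, with a median of -0.20, while 48.9% of all tested genes were negative and the median over them was 0.00. In 60-day males 32 of 36 were negative with a median of -0.18, beside 49.8% and a median of 0.00 over all genes. In 60-day females 22 of 36 were negative with a median of -0.14, beside 48.2% and 0.01. In 30-day females 25 of 36 were negative with a median of -0.04, beside 47.2% and 0.01. With the authors' deposited log2 values, which carry no scaling between libraries, 32 of 36 were negative in 30-day males and 30 of 36 in 60-day males. Neither the share over all genes nor the female counts are given here for that setting. A shift shared by all genes can therefore not be told apart there. The share of gene reads taken by the 36 genes was 1.96% ± 0.11 (SD, n = 4) in WT and 1.81% ± 0.09 in KO males at 30 days, and 2.40% ± 0.08 in WT and 2.14% ± 0.17 in KO males at 60 days. These counts and medians describe the genes and were given no test of their own. Summed hepatocyte markers were at 218706 to 231300 CPM in WT and 197288 to 219431 CPM in KO males at 30 days. In 60-day males they were at 214921 to 236106 and 206847 to 231874 CPM. In 30-day females they were at 216872 to 237822 CPM in WT and 189143 to 215597 CPM in KO. In 60-day females they were at 191009 to 276391 and 243677 to 273920 CPM. Their part in the direction was not tested.

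**Figure D2:**
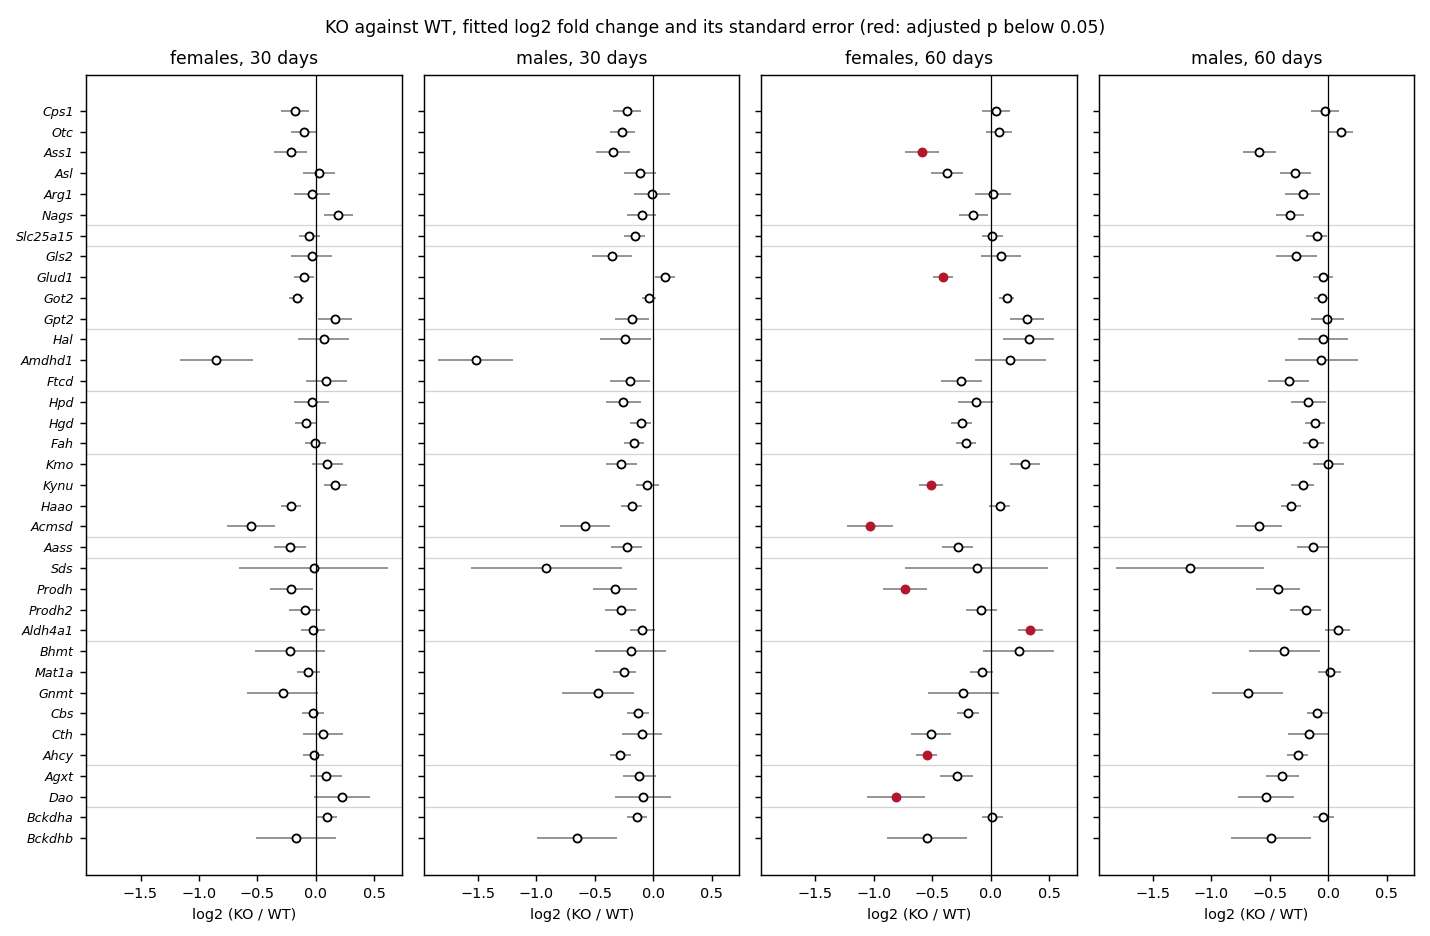
Fitted log2 ratio of KO to WT (x axis) with its standard error for each of the 36 genes (y axis, ordered by pathway) in the 4 combinations of sex and age. Red points passed the adjusted p of 0.05. All 8 red points are in 60-day females, and in 30-day males 35 of 36 points lie left of 0.

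Among the urea cycle enzymes, Ass1, argininosuccinate synthetase, which joins citrulline to aspartate, was the 1 of 6 that passed in 60-day females. Its level was 3305, 2703, 2259 and 2208 CPM in the 4 WT females and 1626, 2138, 1415 and 1791 CPM in the 4 KO females. Every KO library was below every WT library. The fitted KO level was 0.665 of the WT level (log2 -0.59 ± 0.14 SE, adjusted p = 0.0119). In males at 60 days the Ass1 values were 2403, 2364, 2651 and 2374 CPM in WT and 1595, 1624, 1758 and 1537 CPM in KO. These groups did not overlap either, and the log2 ratio was again -0.59 ± 0.14, but the adjusted p was 0.0922, so the male difference did not pass. The sex-by-genotype interaction of Ass1 was -0.00 ± 0.20 and did not pass.

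The other urea cycle enzymes did not pass between genotypes in any group. Asl, which splits argininosuccinate, had a log2 ratio of -0.37 ± 0.14 in females at 60 days (adjusted p = 0.0961), and -0.28 ± 0.14 in males of that age. Cps1, which makes carbamoyl phosphate in mitochondria, lay between -0.22 ± 0.12 in 30-day males and 0.04 ± 0.12 in 60-day females. Otc, which makes citrulline, was at -0.26 ± 0.11 in 30-day males and at 0.11 ± 0.11 in 60-day males. Arg1, the arginase that releases urea, ranged from -0.22 ± 0.15 in 60-day males to 0.02 ± 0.15 in 60-day females. Nags, whose product activates Cps1, ranged from -0.33 ± 0.12 in 60-day males to 0.19 ± 0.12 in 30-day females. Slc25a15, the mitochondrial ornithine carrier, stayed between -0.16 ± 0.09 and 0.01 ± 0.09 over the 4 groups.

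Glud1, glutamate dehydrogenase, which frees ammonia from glutamate, was lower in KO females at 60 days. Its level was 1156, 1091, 1386 and 1363 CPM in WT and 900, 870, 1059 and 941 CPM in KO females. The highest KO value lay below the lowest WT value, and the fitted level was 1.33-fold lower (log2 -0.41 ± 0.09, adjusted p = 0.00403). In 60-day males Glud1 was low in both genotypes, at 866 ± 42.2 CPM (SD, n = 4) in WT and 839 ± 42.1 CPM in KO. Gls2, liver glutaminase, Got2, mitochondrial aspartate aminotransferase, and Gpt2, mitochondrial alanine aminotransferase, did not pass in any genotype contrast. Gpt2 in 60-day females lay between 99.5 and 103 CPM in KO and between 74.7 and 101 CPM in WT (log2 0.31 ± 0.15).

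In the tryptophan route, 2 of 4 genes were lower in 60-day KO females. Acmsd turns an intermediate of the route away from NAD synthesis and towards full oxidation. It was at 21.1, 18.1, 13.6 and 11.9 CPM in WT and at 6.15, 10.3, 7.69 and 7.35 CPM in KO females. The groups did not overlap, and Acmsd was 2.05-fold lower in KO (log2 -1.03 ± 0.19, adjusted p = 0.00156). It was negative in the other groups too, at -0.56 ± 0.21 in 30-day females, -0.58 ± 0.21 in 30-day males and -0.59 ± 0.20 in 60-day males, none of which passed. Kynu, kynureninase, was at 184, 259, 239 and 290 CPM in WT and at 179, 176, 163 and 164 CPM in KO females at 60 days. WT female 1 lay close to the KO values and the other 3 WT libraries well above them, and the fitted level was 1.42-fold lower (log2 -0.51 ± 0.10, adjusted p = 0.00210). Kmo, kynurenine monooxygenase, was at 0.29 ± 0.13 and Haao, which acts after Kynu, at 0.08 ± 0.09 in the same contrast, and neither passed.

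Ahcy, which splits S-adenosylhomocysteine, was the 1 of 6 methionine genes that passed and had the smallest adjusted p of the 36. Its level was 698, 828, 795 and 834 CPM in WT and 469, 594, 599 and 498 CPM in KO females at 60 days. All KO values lay below all WT values, and the fitted level was 1.46-fold lower (log2 -0.55 ± 0.09, adjusted p = 3.84e-04). In 60-day males it was at 695, 730, 799 and 856 CPM in WT and at 625, 655, 620 and 670 CPM in KO. These did not overlap, but the log2 ratio of -0.26 ± 0.09 did not pass. Cth, cystathionine gamma-lyase, was at -0.51 ± 0.18 in 60-day females with no overlap (adjusted p = 0.0774). Mat1a, Gnmt, Cbs and Bhmt lay between -0.23 ± 0.30 for Gnmt and 0.24 ± 0.30 for Bhmt there.

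The proline route held a fall and a rise. Prodh, which starts proline breakdown, was at 262, 308, 173 and 289 CPM in WT and at 109, 199, 145 and 166 CPM in KO females at 60 days. The groups overlapped through WT female 3 and KO female 2, and the fitted level was 1.67-fold lower (log2 -0.74 ± 0.19, adjusted p = 0.0163). Aldh4a1, which completes the conversion of proline to glutamate, was at 655, 448, 498 and 442 CPM in WT and at 616, 708, 636 and 623 CPM in KO females. WT female 1 lay inside the KO range, and the fitted level was 1.27-fold higher (log2 0.34 ± 0.11, adjusted p = 0.0477). Dao, D-amino acid oxidase, was at 64.4, 59.6, 43.5 and 63.3 CPM in WT and at 15.7, 23.1, 52.9 and 39.2 CPM in KO females. The KO values ran over a range wider than the WT values, and the fitted level was 1.76-fold lower (log2 -0.81 ± 0.25, adjusted p = 0.0447).

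These calls were not equally firm. With each of the 8 libraries left out in turn, Acmsd, Ahcy, Kynu, Glud1 and Ass1 passed every time. Prodh was lost without WT female 2, WT female 4 or KO female 1. Dao was lost without WT females 1, 2 or 4 or KO females 1 or 2, and also with upper-quartile scaling, without the low-count filter and when only the 16 libraries at 60 days were fitted. Aldh4a1 was lost in the last 2 of these settings as well, and with single libraries left out it passed only without WT female 1 and was lost without any of the other 7. The count was 5 without WT female 2, without WT female 4 and without KO female 1, the library with retina transcripts. With the clock score as a covariate none of the 8 passed, and the log2 ratios of the 5 firmest were -0.80 for Acmsd, -0.39 for Ahcy, -0.43 for Kynu, -0.32 for Glud1 and -0.72 for Ass1, with adjusted p between 0.0788 and 0.193. Of the 6 genes that raise the score, Dbp, Per2, Per3 and Tef were called higher in KO females at 60 days. The log2 ratios with the covariate kept their sign for all 8 genes, and the cause of the lost calls was not tested.

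**Figure D3:**
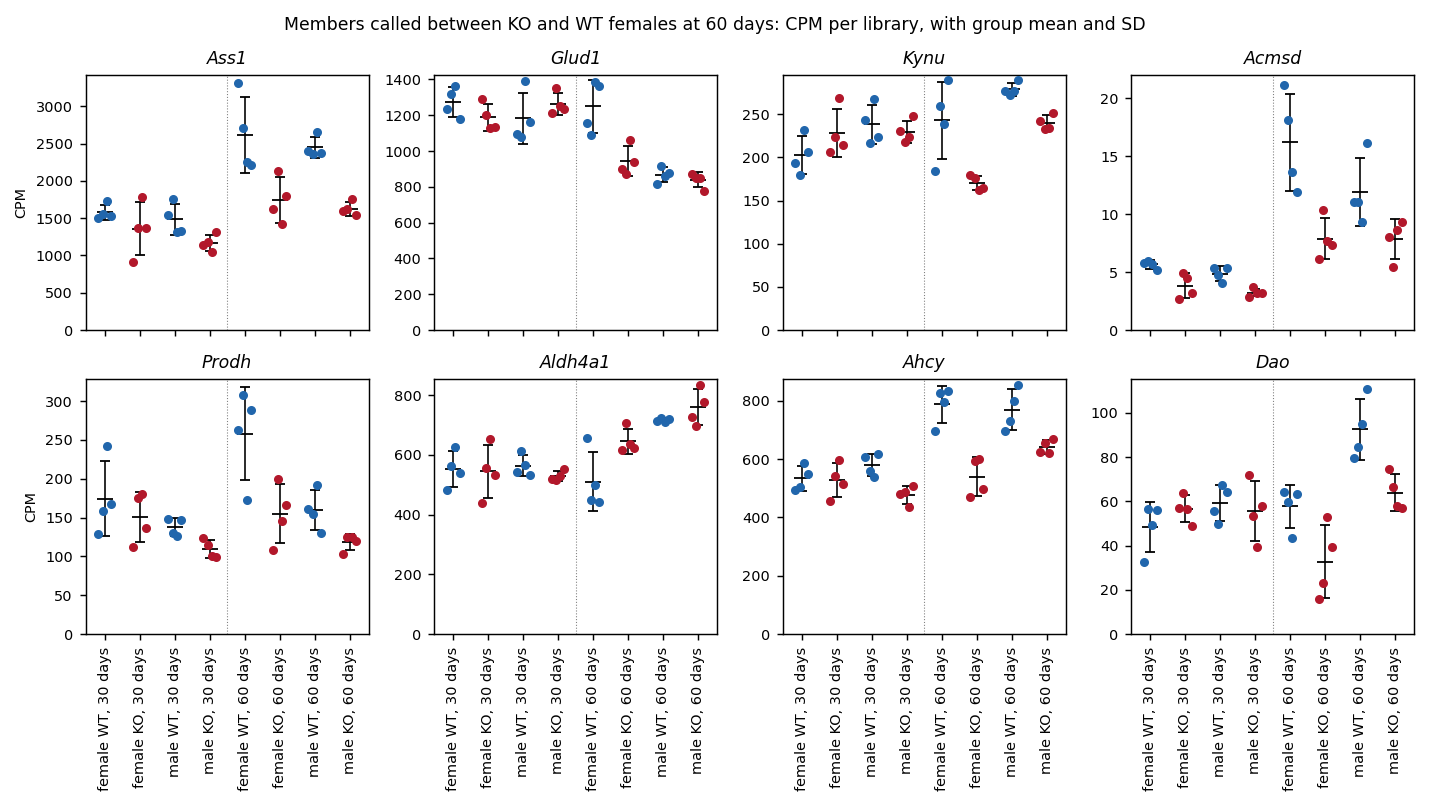
CPM (y axis, from 0) in every library of the 8 groups (x axis, WT blue, KO red) for the 8 genes called between KO and WT females at 60 days, with the group mean and SD in black. KO and WT females at 60 days do not overlap for Ass1, Glud1, Kynu, Acmsd and Ahcy and overlap for Prodh, Aldh4a1 and Dao.

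Upstream sequences are shown so that the genes with the firmest calls can be compared. RefSeq (assembly GRCr8) gave a promoter for 31 of the 38 genes. Arg1, Hal, Amdhd1, Acmsd, Sds, Prodh and Bckdha had no entry. Printed are the 250 bases before the start, 5′ to 3′ on the gene's strand, of the 4 called genes with an entry and a call in every left-out fit. Capitals mark matches to TTNNGCAA, a motif of C/EBP factors, on either strand.
Kynu, chr3:48188036-48188285, plus strand: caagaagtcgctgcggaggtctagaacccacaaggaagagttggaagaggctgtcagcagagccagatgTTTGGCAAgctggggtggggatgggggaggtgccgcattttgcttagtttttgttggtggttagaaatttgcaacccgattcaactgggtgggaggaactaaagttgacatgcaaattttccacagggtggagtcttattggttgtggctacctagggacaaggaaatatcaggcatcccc
Ahcy, chr3:164044563-164044812, minus strand: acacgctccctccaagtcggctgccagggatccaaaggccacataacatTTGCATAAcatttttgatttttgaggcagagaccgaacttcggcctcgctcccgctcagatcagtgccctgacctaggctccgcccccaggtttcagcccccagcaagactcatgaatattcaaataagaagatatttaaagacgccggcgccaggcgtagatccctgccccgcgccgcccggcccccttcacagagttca
Ass1, chr3:35149480-35149729, plus strand: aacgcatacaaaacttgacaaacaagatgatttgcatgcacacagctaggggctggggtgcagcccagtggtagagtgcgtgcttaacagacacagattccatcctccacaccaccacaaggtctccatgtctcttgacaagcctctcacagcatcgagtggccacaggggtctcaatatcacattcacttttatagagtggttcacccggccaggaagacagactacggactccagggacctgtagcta
Glud1, chr16:9646319-9646568, plus strand: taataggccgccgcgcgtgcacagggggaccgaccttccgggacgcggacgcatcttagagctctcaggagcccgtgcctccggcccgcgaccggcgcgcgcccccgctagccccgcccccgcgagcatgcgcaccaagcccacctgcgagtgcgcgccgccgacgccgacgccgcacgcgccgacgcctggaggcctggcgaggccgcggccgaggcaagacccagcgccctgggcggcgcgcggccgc

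Kynu held a match that begins 181 bases before the start and Ahcy one at 201 bases, while Ass1 and Glud1 held none. The motif was present in 4 of the 31 promoters (12.9%: Aass, Ahcy, Hgd and Kynu) and in 9.20% of 27456 rat promoters of this length. AGAACA, a half-site of the glucocorticoid receptor, was in 5 of 31 (16.1%) and in 17.1% of all promoters. TGACG, a half-site of the cyclic AMP response element, was in 5 of 31 and in 19.0% of all. TTCNNNGAA, the STAT5 motif, was in 1 of 31, Gls2, and in 7.52% of all. None of the last 3 was in the windows of Kynu, Ahcy, Ass1, Glud1, Dao or Aldh4a1. All 4 motifs were searched on both strands, no matches to different motifs overlapped in these promoters, and a match describes the letters only.

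The rest of the amino acid pathways, 64 tested genes of a list of 70, gave 5 calls in 60-day females. That is 7.81% of the list, near the 6.77% of all tested genes called in that contrast. Gpt, the cytosolic alanine aminotransferase, was at 126, 200, 119 and 149 CPM in WT and at 72.7, 80.5, 55.5 and 72.1 CPM in KO, without overlap, and was 2.11-fold lower (log2 -1.08 ± 0.26, adjusted p = 0.0113). Glul, glutamine synthetase, which traps ammonia in pericentral hepatocytes, was at 419, 611, 639 and 852 CPM in WT and at 433, 321, 439 and 414 CPM in KO (log2 -0.65 ± 0.16, adjusted p = 0.0120), with WT female 1 inside the KO range. Gcat was lower (log2 -0.36 ± 0.10), and Suox (0.29 ± 0.08) and Sdsl (0.44 ± 0.14) were higher. Tat, tyrosine aminotransferase, at 0.31 ± 0.30, Tdo2, tryptophan dioxygenase, at 0.15 ± 0.16 and Oat, ornithine aminotransferase, at 0.69 ± 0.31 did not pass. No gene of this list passed in the other 3 genotype contrasts, where Gpt was at -0.95 ± 0.26 in 60-day males (adjusted p = 0.145) and at -0.01 ± 0.26 in 30-day females. Of 8 amino acid transporters tested, the pericentral glutamate transporter Slc1a2 was lower in 60-day KO females (log2 -2.34 ± 0.33, adjusted p = 6.20e-05), where 3.29% of all tested genes were lower. Slc1a2, Glul and Oat are all on the list of pericentral markers, and the estimate of Oat had the opposite sign.

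A list of 22 genes, termed regulators here, held liver transcription factors beside genes such as Fkbp5, Sgk1 and Ddit4. Not all of them are regulators of these pathways. Klf9 (log2 -0.73 ± 0.21) and Zbtb16 (-1.93 ± 0.37) were lower in 60-day KO females, where 3.29% of all tested genes were lower. Cebpb was 2.01-fold lower in 60-day KO males (log2 -1.01 ± 0.17, adjusted p = 0.00792), where 0.155% of all tested genes were lower. In 60-day females Cebpb was at -0.38 ± 0.16 and Cebpa at -0.17 ± 0.13, and neither passed. Nr3c1, the glucocorticoid receptor, was between -0.15 ± 0.12 and 0.02 ± 0.12 over the 4 genotype contrasts. Hnf4a at 0.49 ± 0.15 in 30-day females, Gcgr, the glucagon receptor, at 0.06 ± 0.11 in 60-day females and Ppargc1a at -0.16 ± 0.34 in the same group did not pass. Summed periportal markers (7 measured, of which Sds, Hal, Gls2, Cps1 and Ass1 belong to the 36) were at 7435 to 10256 CPM in WT and 6981 to 8188 CPM in KO females at 60 days. Summed pericentral markers (6 measured) were at 4959 to 7101 CPM in WT and at 3590 to 5881 CPM in KO. The part of these in the differences was not tested.

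The second question was whether the sexes differed, since the study's title concerns sexual dimorphism. At 30 days none of the 36 genes differed between WT males and WT females (2.07% of all tested genes did, and 5 of the 36 had an unadjusted p below 0.05, beside 12.9% of all genes, while DESeq2 called Gpt2 and 2.8% of all genes). At 60 days 7 were higher in WT males (13.7% of all tested genes) and 6 were lower (12.7%). In KO rats 4 of 36 were lower in males at 30 days (1.38% of all tested genes) and none was higher (0.854%). At 60 days 5 were higher in KO males (9.63%) and 4 lower (8.89%). The deposited log2 values gave 5 higher and 7 lower in WT at 60 days (11.6% and 14.3% of all genes), and upper-quartile scaling gave 2 higher and 4 lower in KO at 60 days (8.82% and 9.52%).

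Among the genes lower in males at 60 days, 2 of the 3 measured histidine genes, Hal and Amdhd1, had the largest log2 ratios in both genotypes. Hal, histidase, the first enzyme of histidine breakdown, was at 1046, 1069, 623 and 994 CPM in WT females and at 442, 483, 536 and 323 CPM in WT males. The sexes did not overlap, and males were 2.09-fold lower (log2 -1.06 ± 0.22, adjusted p = 4.99e-04). In KO rats Hal was at 1162, 1123, 1246 and 1146 CPM in females and at 473, 405, 513 and 340 CPM in males, 2.70-fold lower in males (log2 -1.43 ± 0.22, adjusted p = 1.99e-05). Amdhd1, the third enzyme of the route, was at 195, 284, 221 and 189 CPM in WT females and at 87.7, 70.9, 54.0 and 51.3 CPM in WT males. It was 3.37-fold lower in WT males (log2 -1.75 ± 0.31, adjusted p = 1.21e-04) and 3.94-fold lower in KO males (log2 -1.98 ± 0.32, adjusted p = 4.28e-05). Ftcd, which ends the route, did not pass in either genotype (0.26 ± 0.17 in WT and 0.17 ± 0.17 in KO).

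Hpd, which makes homogentisate from tyrosine's keto acid, was lower in males of both genotypes at 60 days, at 2993 ± 169 CPM (SD, n = 4) in WT females against 1864 ± 215 CPM in WT males (log2 -0.68 ± 0.15, adjusted p = 9.58e-04) and -0.72 ± 0.15 in KO. Prodh2, hydroxyproline dehydrogenase, was lower in males as well, at -0.72 ± 0.13 in WT and -0.84 ± 0.13 in KO. Hgd and Fah, the next steps of the tyrosine route, lay between -0.05 ± 0.09 and 0.10 ± 0.09 in both genotypes and did not pass. Prodh (-0.69 ± 0.19) and Glud1 (-0.53 ± 0.09) passed in WT rats but not in KO rats, where they were at -0.39 ± 0.19 and -0.17 ± 0.08. Glud1 was at 1091 to 1386 CPM in WT females, 870 to 1059 CPM in KO females, 813 to 915 CPM in WT males and 778 to 874 CPM in KO males at 60 days, so KO females lay between WT females and the males with some overlap with the latter.

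Higher in WT males at 60 days were Bhmt, which remethylates homocysteine (log2 0.92 ± 0.30), Dao (0.68 ± 0.24), Arg1 (0.65 ± 0.15), Haao (0.54 ± 0.09), Aldh4a1 (0.49 ± 0.11), Got2 (0.38 ± 0.06) and Slc25a15 (0.27 ± 0.09). Arg1 was at 587 ± 161 CPM in WT females and 921 ± 113 CPM in WT males, without overlap. Higher in KO males at 60 days were Dao (0.96 ± 0.25), Kynu (0.49 ± 0.10), Otc (0.31 ± 0.11), Ahcy (0.25 ± 0.09) and Got2 (0.19 ± 0.06). Kynu, Ahcy and Dao are among the genes lower in KO females than in WT females, a contrast that shares the 60-day KO female libraries with this one. The clock score at 60 days was -1.21 ± 0.44 (SD, n = 4) in KO males and -0.13 ± 0.76 in KO females. In WT it was -1.51 ± 0.38 in males and -1.54 ± 0.53 in females. It was not tried as a covariate for the sex contrasts, so its part was not tested. At 30 days the 4 genes lower in KO males were Hal (-0.88 ± 0.22), Hpd (-0.63 ± 0.15), Kmo (-0.57 ± 0.13) and Prodh2 (-0.51 ± 0.13).

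Single libraries decided part of these calls. In WT rats at 60 days Bhmt was lost without WT female 2, WT female 3 or WT male 1, Slc25a15 without WT female 4, WT male 2 or WT male 4, and Dao without WT female 2, WT female 3, WT male 3 or WT male 4. In KO rats at 60 days Got2 was lost without KO females 2, 3 or 4 or KO males 1 or 4, Otc without KO females 1 or 3 or KO males 1, 2 or 4, and Ahcy without KO females 1 or 4 or any KO male. The 4 calls in 30-day KO rats fell to 1 without KO female 3 or without any 1 of the 4 KO males, and to 2 without KO female 1. The titles of the 30-day samples carry a number, 1 or 2, of unstated meaning, which is 2 in all 4 KO females and in 1 of 4 KO males, 1 of 4 WT females and 2 of 4 WT males. With that number as a covariate, fitted to the 16 libraries at 30 days, an alternative chosen after the data were seen, none of the 4 passed, with log2 ratios of -0.59 for Hal, -0.45 for Hpd, -0.62 for Kmo and -0.36 for Prodh2 and adjusted p of 0.0828 to 0.402. Sex and this number can hardly be told apart in KO rats at 30 days, nor can genotype and the number in females of that age, where no gene of the 36 passed with or without it. Hal, Amdhd1, Hpd and Prodh2 passed in both genotypes at 60 days without any 1 library.

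**Figure D4:**
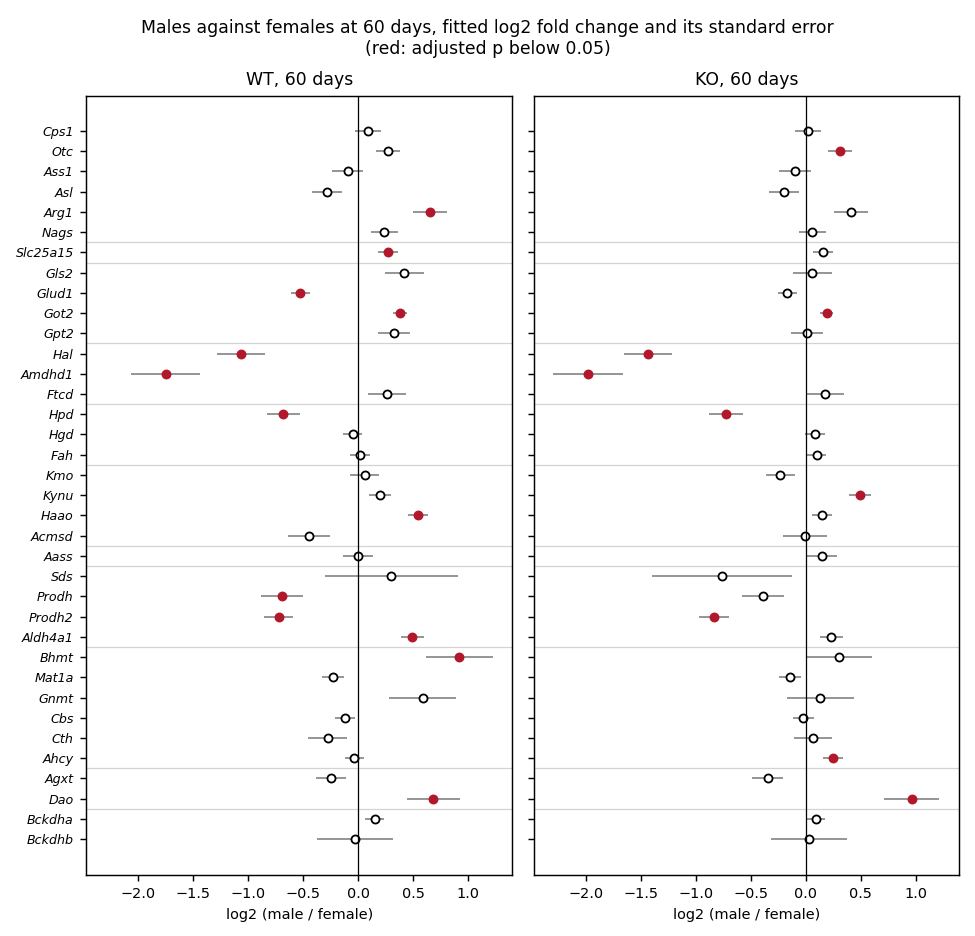
Fitted log2 ratio of males to females at 60 days (x axis) with its standard error for each of the 36 genes (y axis, ordered by pathway) in WT and in KO rats. Red points passed the adjusted p of 0.05. Amdhd1 and Hal lie farthest to the left in both panels, at -1.75 and -1.06 in WT and at -1.98 and -1.43 in KO.

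The test of whether the sex difference itself differed between genotypes gave no call among the 36 genes at 30 days (0% of all tested genes) or at 60 days (0.136%). At an unadjusted p below 0.05 the interaction held 1 of the 36 at 30 days (5.51% of all genes) and 5 at 60 days (10.6%), and DESeq2 called 0 of the 36 at either age (0% and 0.708% of all genes). For Glud1 at 60 days the interaction was 0.36 ± 0.12 and for Haao -0.39 ± 0.12, and neither passed. A gene that passed in WT and not in KO is therefore not shown to differ between the genotypes. Of the 64 other pathway genes, 18 were higher and 5 lower in WT males at 60 days (beside 13.7% and 12.7% of all tested genes) and 14 higher and 2 lower in KO males (beside 9.63% and 8.89%), with Oat lower in males of both genotypes (-1.17 ± 0.32 in WT and -1.28 ± 0.32 in KO) and Glul lower in WT males (-1.08 ± 0.16). Of the 22 regulators 5 were higher and 6 lower in WT males, a share to be set beside the same 13.7% and 12.7%, among them Nr3c1 (0.36 ± 0.12), Cebpb (0.50 ± 0.16), Hnf4a (-0.41 ± 0.15) and Ppargc1a (-1.49 ± 0.37).

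The third question was how the genes changed from 30 to 60 days. Sample titles differed in form between the ages. Reads on genes were 16806943 to 21954929 at 30 days and 12951969 to 17133332 at 60 days. Any difference in preparation or sequencing between the ages cannot be told apart from age. Most calls among the 36 were increases. In WT females 14 of 36 were higher at 60 days (16% of all tested genes) and 1 was lower (17.1%). In KO females 9 were higher (10.6%) and 3 lower (12.1%). In WT males 21 were higher (15.7%) and 1 was lower (15.8%), and in KO males 19 were higher (14%) and 1 was lower (14.5%). The medians of the 36 log2 changes were 0.26, 0.09, 0.34 and 0.38 in WT females, KO females, WT males and KO males, beside medians over all genes of 0.01, 0.00, -0.01 and -0.01. Sums of markers of other cell types also differed between the ages. Summed stellate markers went from 979 to 1337 CPM at 30 days to 229 to 379 CPM at 60 days in WT females, from 781 to 925 to 378 to 402 CPM in KO females, from 806 to 1091 to 276 to 484 CPM in WT males and from 898 to 1356 to 425 to 529 CPM in KO males. Summed cholangiocyte markers were at 25.2 to 35.6 CPM in all groups at 30 days and at 11.8 to 22.1 CPM at 60 days, and endothelial markers (3 measured) were at 140 to 217 and at 105 to 173 CPM. Their part in the age changes was not tested. These contrasts share no library with each other but share their 30-day and 60-day groups with the contrasts of genotype and sex.

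Of the 3 measured histidine genes, Hal was called higher in all 4 groups and Amdhd1 in 3, while Ftcd passed in males (0.70 ± 0.17 in WT and 0.57 ± 0.17 in KO) and not in females (0.37 ± 0.17 and 0.03 ± 0.17). Hal went from 126, 177, 212 and 377 CPM in 30-day WT females to the 60-day values above, a 4.19-fold rise (log2 2.07 ± 0.23), and rose 5.00-fold in KO females (2.32 ± 0.23), 2.96-fold in WT males (1.57 ± 0.22) and 3.40-fold in KO males (1.77 ± 0.22). Amdhd1 rose 3.57-fold in WT females (log2 1.84 ± 0.32), 7.24-fold in KO females (2.86 ± 0.33) and 2.96-fold in KO males (1.56 ± 0.32). In WT males it was at 77.1, 29.1, 71.5 and 68.6 CPM at 30 days and at 87.7, 70.9, 54.0 and 51.3 CPM at 60 days, which did not pass (0.10 ± 0.31). The 30-day KO males were low and even, at 21.9, 22.6, 18.9 and 22.5 CPM, below all 4 WT males, with a log2 ratio of -1.52 ± 0.32 that did not pass (adjusted p = 0.0724). The age-by-genotype interaction of Amdhd1 was not called in either sex.

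Acmsd was called in all 4 age contrasts, from 5.66 ± 0.36 to 16.2 ± 4.19 CPM in WT females (log2 1.51 ± 0.20), from 3.83 ± 1.07 to 7.88 ± 1.76 CPM in KO females (1.04 ± 0.21), and by 1.28 ± 0.20 in WT and 1.27 ± 0.21 in KO males. Its largest adjusted p among these was 3.82e-04, in KO females. Hpd rose in all 4 groups by 0.61 to 0.89 on the log2 scale. Bhmt passed in males, with 1.44 ± 0.31 in WT and 1.26 ± 0.31 in KO, against 0.25 ± 0.30 and 0.72 ± 0.30 in females, which did not pass, and whether the sexes differed was not tested. Gnmt, glycine N-methyltransferase, passed in all 4, at 0.81 ± 0.31, 0.86 ± 0.31, 1.39 ± 0.31 and 1.18 ± 0.31 in WT females, KO females, WT males and KO males. The female calls of Gnmt were lost without WT females 1 or 2 of either age in WT rats, and without KO females 1, 2 or 4 at 30 days or 2, 3 or 4 at 60 days in KO rats. Of 5 other settings 1 kept the WT call (DESeq2) and 2 kept the KO call (DESeq2 and upper-quartile scaling).

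Ass1 was higher at 60 days in WT females (log2 0.73 ± 0.14), WT males (0.72 ± 0.14) and KO males (0.48 ± 0.14), and did not pass in KO females (0.36 ± 0.14, adjusted p = 0.0717). Among the other urea cycle enzymes Asl rose in WT females (0.58 ± 0.14), Arg1 (0.50 ± 0.15) and Nags (0.39 ± 0.12) rose in WT males, and Otc rose in KO males (0.45 ± 0.11). The Arg1 call was lost without WT male 3 at 60 days, and the Nags call without that library or WT male 4 at 30 days. Cps1 lay between -0.13 ± 0.12 and 0.13 ± 0.12 in the 4 groups and was not called. The other large rises were of Cth (0.64 ± 0.18) and Gpt2 (0.61 ± 0.15) in WT females, of Gpt2 (0.76 ± 0.15) and Gls2 (0.50 ± 0.17) in KO females, of Gls2 (0.77 ± 0.17) and Dao (0.64 ± 0.24) in WT males, and of Gls2 (0.85 ± 0.18) and Kmo (0.63 ± 0.13) in KO males. The Gls2 call in KO females was lost without KO females 1, 2 or 4 at 30 days or 1 or 2 at 60 days, and the Dao call in WT males without WT males 1, 2 or 4 at 30 days or 2, 3 or 4 at 60 days.

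Few genes fell with age. Glud1 fell by 0.45 ± 0.09 on the log2 scale in WT males, by 0.59 ± 0.09 in KO males and by 0.33 ± 0.08 in KO females. In WT females it was at 1275 ± 83.1 CPM at 30 and 1249 ± 147 CPM at 60 days, which did not differ beyond the spread. Haao, which makes the precursor of quinolinate, fell by 0.30 ± 0.09 in WT females. Kynu fell by 0.42 ± 0.10 and Dao by 0.79 ± 0.25 in KO females, the Dao call being lost without KO female 2 at 30 days or KO females 1 or 2 at 60 days. With the deposited log2 values the median over all genes moved by -0.12 to -0.21 with age. The higher and lower calls among the 36 were then 9 and 4 in WT females (8.75% and 24.9% of all genes), 5 and 4 in KO females (5.17% and 24.8%), 9 and 2 in WT males (7.35% and 28.1%) and 13 and 1 in KO males (5.77% and 32.8%).

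**Figure D5:**
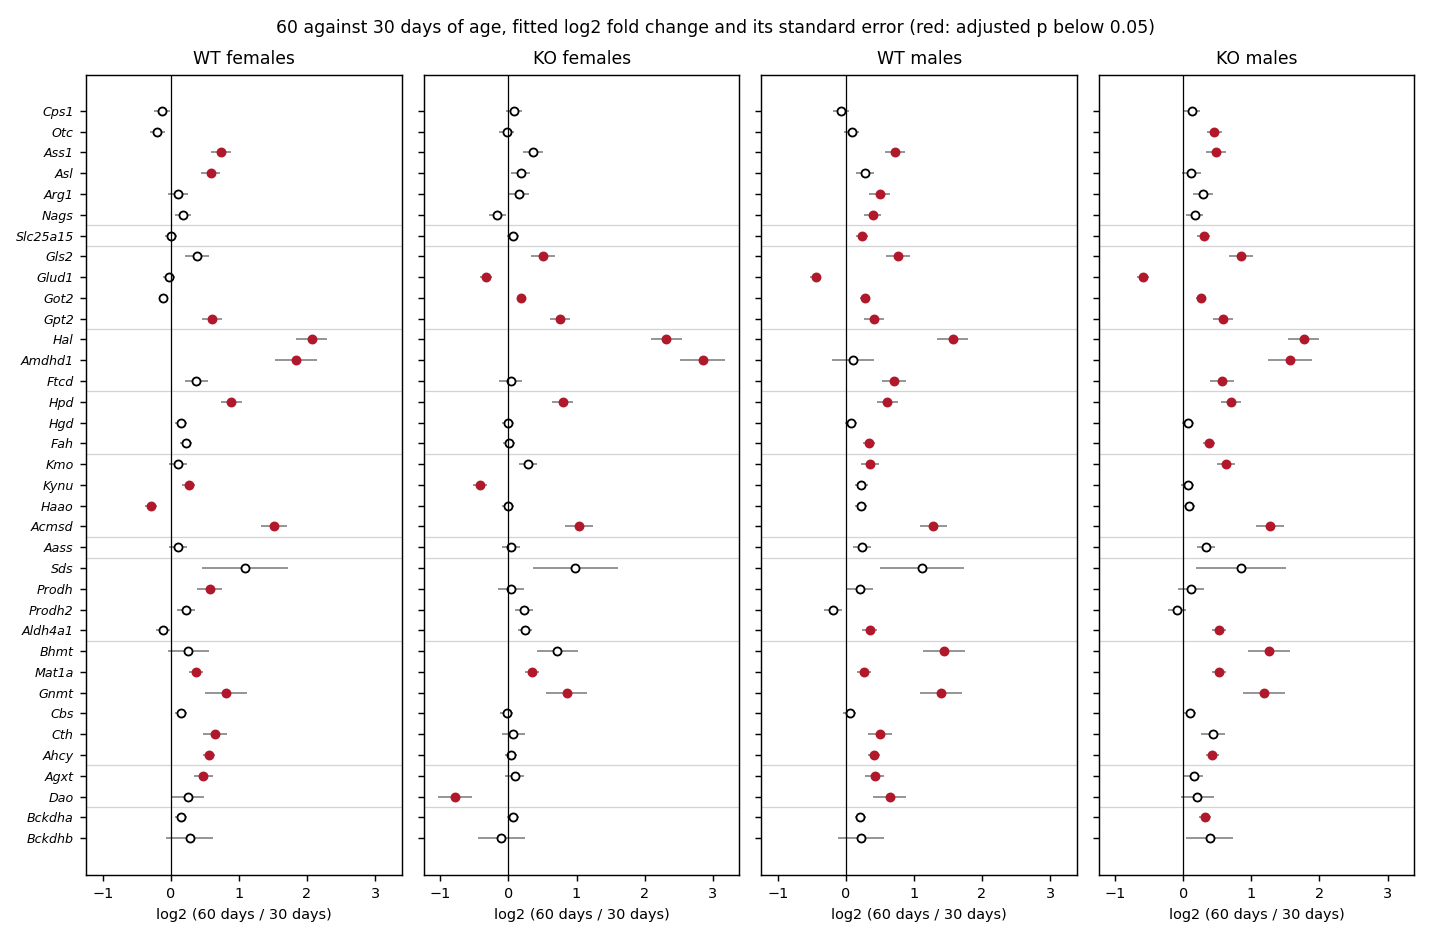
Fitted log2 ratio of 60 to 30 days (x axis) with its standard error for each of the 36 genes (y axis, ordered by pathway) in WT females, KO females, WT males and KO males. Red points passed the adjusted p of 0.05. Hal lies at 2.07, 2.32, 1.57 and 1.77 in the 4 panels, and Glud1 lies left of 0 in all of them.

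The last question was whether the change with age differed between genotypes. In females it did for 2 of the 36 genes, Kynu and Ahcy, both with a smaller rise or a fall in KO (1.55% of all tested genes had a negative call and 1.42% a positive call). Upper-quartile scaling added Got2 with a positive call. Kynu went from 194, 180, 231 and 206 CPM to 184, 259, 239 and 290 CPM in WT females and from 206, 224, 268 and 214 CPM to 179, 176, 163 and 164 CPM in KO females. Its change was 0.26 ± 0.10 in WT, a call lost without 6 of the 8 libraries (all but WT female 3 at 30 days and WT female 1 at 60 days) and kept in only 1 of 5 other settings (DESeq2), and -0.42 ± 0.10 in KO, and the interaction was -0.68 ± 0.14 (adjusted p = 0.0075). Ahcy went from 534 ± 43.0 to 789 ± 63.0 CPM in WT females and from 528 ± 58.5 to 540 ± 66.5 CPM in KO females (n = 4 each). Its change was 0.56 ± 0.09 in WT and 0.03 ± 0.09 in KO, and the interaction was -0.53 ± 0.13 (adjusted p = 0.0193). The interaction of Ahcy had an adjusted p of 0.0509 without KO female 1 at 60 days, and without WT female 1 at 60 days 5 genes passed. In a fit to the 16 female libraries alone neither passed, with adjusted p of 0.0691 for Kynu and 0.0946 for Ahcy. The clock score of females was -1.38 ± 0.29 (SD, n = 4) in WT and -0.76 ± 0.40 in KO at 30 days. At 60 days it was -1.54 ± 0.53 and -0.13 ± 0.76. It was not tried as a covariate for this interaction, so its part was not tested.

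In males no gene of the 36 passed this interaction (0.00909% of all tested genes did, DESeq2 called 0 of the 36 and 0.157% of all genes, and 2 of the 36 and 5.34% of all genes were below 0.05 before adjustment). In males Ahcy rose by 0.41 ± 0.09 in WT and by 0.43 ± 0.09 in KO on the log2 scale. Among the uncalled genes in females, Dao had the largest estimate, -1.04 ± 0.35, and Amdhd1 followed at 1.02 ± 0.44. Both were larger in size than the called -0.68 of Kynu and -0.53 of Ahcy, but neither passed (adjusted p = 0.0941 for Dao). The interaction in females shares its 60-day libraries with the genotype contrast in 60-day females, so Kynu and Ahcy are not separate evidence from their calls there. Of the 64 other pathway genes Sdsl was positive (0.66 ± 0.19) and Aadat negative in females. Slc1a2 (-2.25 ± 0.51) and the regulator Zbtb16 (-1.90 ± 0.52) were also called in females, and Cebpb was the 1 of 22 regulators called in males (-1.37 ± 0.23, adjusted p = 0.0269).

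The 36 genes also differed in how far samples of 1 group spread. Bckdhb, a subunit of the branched-chain keto acid dehydrogenase, had a standard error of 0.34 to 0.35 in each contrast of 2 groups, while its partner Bckdha had 0.09. In 30-day WT males Bckdhb was at 83.3, 41.3, 81.8 and 80.2 CPM, and in 30-day KO males at 68.0, 39.6, 37.3 and 37.9 CPM. Each of these groups held 1 library apart from the other 3. Bckdha was at 162 to 190 CPM and at 148 to 172 CPM in the same groups, with no such library. The spread of Bckdhb was not confined to these groups or to single libraries. It was at 40.8, 123, 42.9 and 75.6 CPM in 30-day WT females and at 70.8, 70.7, 44.4 and 47.8 CPM in 60-day KO females. Sds, serine dehydratase, had the widest spread, from 1.92 to 19.5 CPM in 30-day KO females and from 3.46 to 39.3 CPM in 60-day WT females. Its standard errors were 0.61 to 0.66, so that differences well above the standard error could go uncalled. In 60-day males Sds was at 27.7 ± 12.1 CPM in WT and 12.3 ± 3.58 CPM in KO (SD, n = 4), which did not pass. Agxt, which detoxifies glyoxylate, and Aass, which starts lysine breakdown, passed in no genotype contrast and were at -0.29 ± 0.14 and -0.28 ± 0.13 in 60-day females. Agxt rose with age in WT females (0.47 ± 0.14, lost without WT female 2 at 60 days) and WT males (0.42 ± 0.14, lost without WT males 1 or 4 at 30 days or 3 at 60 days), and Aass did not pass in any contrast.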

How the data were processed

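RNA of 32 liver samples was extracted with Trizol and made into stranded messenger RNA libraries, per the labels' protocols. The tools limma, Cufflinks and STAR and the build Rnor_5.0 appear in, and are stated per, the submitters' processing notes, without role or version. The authors deposited raw counts of reads per gene for 17327 genes, and log2 values, log2 CPM of 11344 genes without scaling between libraries. Reads on no feature, 18.0% to 21.2%, and ambiguous reads were left out. Reads shared with overlapping genes or near copies could not be parted.

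The test was edgeR's (version 4.0.16, R 4.3.3; filterByExpr with a minimum count of 10, TMM scaling, a robust quasi-likelihood model with 8 group means over 32 libraries, 24 residual degrees of freedom, biological coefficient of variation 0.148), in 16 contrasts, each with Benjamini-Hochberg adjustment over 11002 genes and calls at an adjusted p below 0.05. The standard error is the log2 fold change over the root of its F. The scripts were tested on simulated data. Alternatives were DESeq2 1.42.0, upper-quartile scaling, no filter, limma 3.58.1 on the deposited log2 values, fits to 16 libraries, a clock score covariate, the number in the 30-day titles as a covariate (for the sex contrasts chosen after the data were seen), and leaving out each library. The clock score covariate was fitted in the genotype contrasts only. Promoters came from RefSeq GRCr8.

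All genes called for genotype or an interaction are named, up to 8 by size in each sex and age contrast, and the urea cycle enzymes always. Of the other pathway genes, up to 5 with the smallest adjusted p per genotype contrast, and a few set regulators and enzymes always, are named, while Aadat, Got2 and the clock genes were named after their values were seen. The genes and lists were chosen with earlier results of these data known. Within groups no library repeats another: pairs gave a chi-square of 11.1 to 58.6 for each degree of freedom. Pairs across groups were not compared.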

Additional observations from a re-analysis of the deposited data

Results flagged for a closer look

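Among 288 groups of 4 values (36 genes in 8 groups), 13 held a library apart from the other 3 by Dixon's criterion, where chance gives about 1 in 20. At 30 days these were Gpt2 at 89.2 CPM and Bckdhb at 41.3 CPM in WT male 2, Mat1a at 1876 CPM in WT male 4, Agxt at 126 CPM in KO male 4, Bckdhb at 68.0 CPM in KO male 1 and Bhmt at 3083 CPM in KO female 3. At 60 days they were Ass1 at 2651 CPM and Bckdhb at 57.2 CPM in WT male 3, Gpt2 at 101 CPM in WT female 2, Hal at 623 CPM in WT female 3, Fah at 531 CPM in WT female 4, Hgd at 269 CPM in KO female 1 and Arg1 at 781 CPM in KO female 4. Bckdhb accounted for 3 of the 13. The change with age in females differed between genotypes for Kynu by -0.68 and for Ahcy by -0.53 on the log2 scale, each by the interaction term of the edgeR fit.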

How the results depend on the processing

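Of 1393 recomputed values of called genes, 1182 kept direction and call, 211 kept direction and lost the call, and 0 changed sign. Where the count of called genes moved by over 1.5 times, it was 0 in 60-day females with the clock score, 1 in 30-day males (Amdhd1), 2 in 60-day males (Ass1 and Haao), 1 for sex in WT at 30 days and 4 for age by genotype in females with DESeq2, 0 for sex in KO at 30 days with the title number as a covariate, 2 for sex in KO at 30 days and 0 for age by genotype in females in fits to 16 libraries, and 11 for age in WT males with the deposited log2 values. With libraries left out in turn the counts were 5 to 8 for genotype in 60-day females, 0 to 1 in 30-day males (1 without WT male 2), 0 to 1 for sex in WT at 30 days (1 without WT female 1), 1 to 4 for sex in KO at 30 days, 0 to 1 for sex by genotype at 60 days (1 without WT female 1), 1 to 5 for age by genotype in females and 8 to 15 for age in KO females (8 without KO female 2 at 60 days). The cause was not tested. Of all genes it adjusted, DESeq2 called 0.207% in 30-day males, 0.635% in 60-day males and 2.8% for sex in WT at 30 days. With the deposited log2 values 7.35% of all genes were called higher and 28.1% lower for age in WT males. Shares over all genes are not given here for the other settings of this paragraph or for any fit with a library left out. Those counts describe the 36 genes only. No paired analysis was possible because sample numbers follow the order of deposit and link nothing across groups.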
